A study of Mus musculus with 8 samples.

Results

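The genes described here are 10 ligands, receptors and regulators of tumour necrosis factor (TNF) and interleukin-1 (IL-1) signalling, and all 10 were found by symbol among the 54532 genes listed for PTS + RS and RS and the 28229 genes listed for RGFP109 and vehicle. They are the ligands Tnf, Il1a and Il1b, the receptors Tnfrsf1a, Tnfrsf1b, Tnfrsf12a and Il1r1, the receptor antagonist Il1rn, and the intracellular regulators Tnfaip3 and Tnfaip8l2. The genes were listed by name, with earlier results of these data known.

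TNF binds TNFR1 (Tnfrsf1a), a death domain receptor found on most cells, and TNFR2 (Tnfrsf1b), which has no death domain and is found mainly on immune and endothelial cells. IL-1α and IL-1β (Il1a, Il1b) signal through IL-1R1 (Il1r1) together with the co-receptor Il1rap, and IL-1Ra (Il1rn) occupies the same receptor without signalling. Both routes lead to NF-κB, which induces its own inhibitor A20 (Tnfaip3), and in the injured brain microglia and invading myeloid cells are well known sources of TNF and IL-1.

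RNA-seq was available for 8 libraries of brain tissue from male C57BL/6 mice, 2 libraries in each of 4 groups, all of Day 21. RS mice were exposed to restraint stress without a stroke, and PTS + RS mice received a photothrombotic cortical stroke in addition to restraint stress. The tissue label of these 4 libraries is cortex, and by the study's account it was the damaged cortex in PTS + RS. The other 4 libraries are of PTS + RS mice that received either RGFP109 or vehicle, labelled NaCl. RGFP109 is labelled an inhibitor of histone deacetylase 3 (HDAC3), and the study's discussion describes it as selective for both HDAC1 and HDAC3. The dose was 60 mg/kg, given daily under the skin over 2 weeks by the labels, whereas another passage of the study gives a longer course, so how much of the course preceded the Day 21 tissue is uncertain. In both of these groups replicate 1 is labelled cortex and replicate 2 amygdala. All mice were thus restrained, and no library of an unstressed or sham mouse entered the comparisons. The sources used here do not state whether a library holds 1 mouse or a pool, nor that replicates came from separate mice, so the p-values measure only the spread between these libraries.

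Each library held between 15902013 and 21712033 deposited counts. Expression is given as the count and as CPM, the count scaled to the TMM-normalized library size, in which 3 counts correspond to 0.14 to 0.19 CPM. The 2 tables were normalized separately, so levels are not compared between the 2 experiments by a test. Several libraries stood apart by their regional markers. The summed level of 7 olfactory bulb markers was 1167 CPM in vehicle replicate 1 and between 9.21 and 15.1 CPM in the other 7 libraries. The summed level of 7 striatal markers was 776 CPM in RGFP109 replicate 2 and 903 CPM in vehicle replicate 2, against 61.9 to 105 CPM elsewhere. Cortical markers were higher in these amygdala-labelled libraries (741 and 658 CPM) than in the cortex-labelled ones of the same experiment (384 and 361 CPM), whereas the sum of 7 amygdala markers overlapped (68.7 and 73.7 CPM against 82.7 and 35.0 CPM). Rspo2 alone made up 41.0 CPM of the 82.7 CPM in RGFP109 replicate 1. Of these markers 6 were tested, and all 6 had positive fold changes for the amygdala label (median 0.62 on the log2 scale). Both of its libraries were higher for 3 markers, and the share of all genes that separate so was not counted. The labels are therefore used as labels only. Choroid plexus markers ranged from 9.39 CPM in vehicle replicate 1 to 3759 CPM in RS replicate 2. Their sum was lower in both PTS + RS libraries (1603 and 46.7 CPM) than in both RS libraries (1805 and 3759 CPM). PTS + RS replicates 1 and 2 also stood apart from each other.

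The first comparison, PTS + RS against RS, asked which transcripts differed in stressed mice with a stroke. The receptor Tnfrsf1b and the regulator Tnfaip8l2 rose, and the antagonist Il1rn was past the threshold on few counts. The ligands had at most 27 counts in a library. Among them Il1b, which was not tested, had 3 and 4 counts in PTS + RS and 9 and 4 in RS, and no difference was shown at these low counts. Of the 10 genes, 8 passed the filter on low counts, and 2 of these, Il1a and Il1rn, passed through their PTS + RS libraries alone, so that a higher value in PTS + RS was built into their being tested. In edgeR's quasi-likelihood test, 3 were past the threshold, all higher in PTS + RS. The threshold combined a Benjamini-Hochberg adjusted p below 0.05 with an absolute log2 fold change not below 1. Among all 17581 genes tested, 2.12% were past it as higher and 0.091% as lower. The 8 tested genes had a median fold change of 1.23 on the log2 scale, and the 6 that did not depend on 1 group to pass the filter had 0.65, beside -0.0015 for all genes tested.

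**Figure D1:**
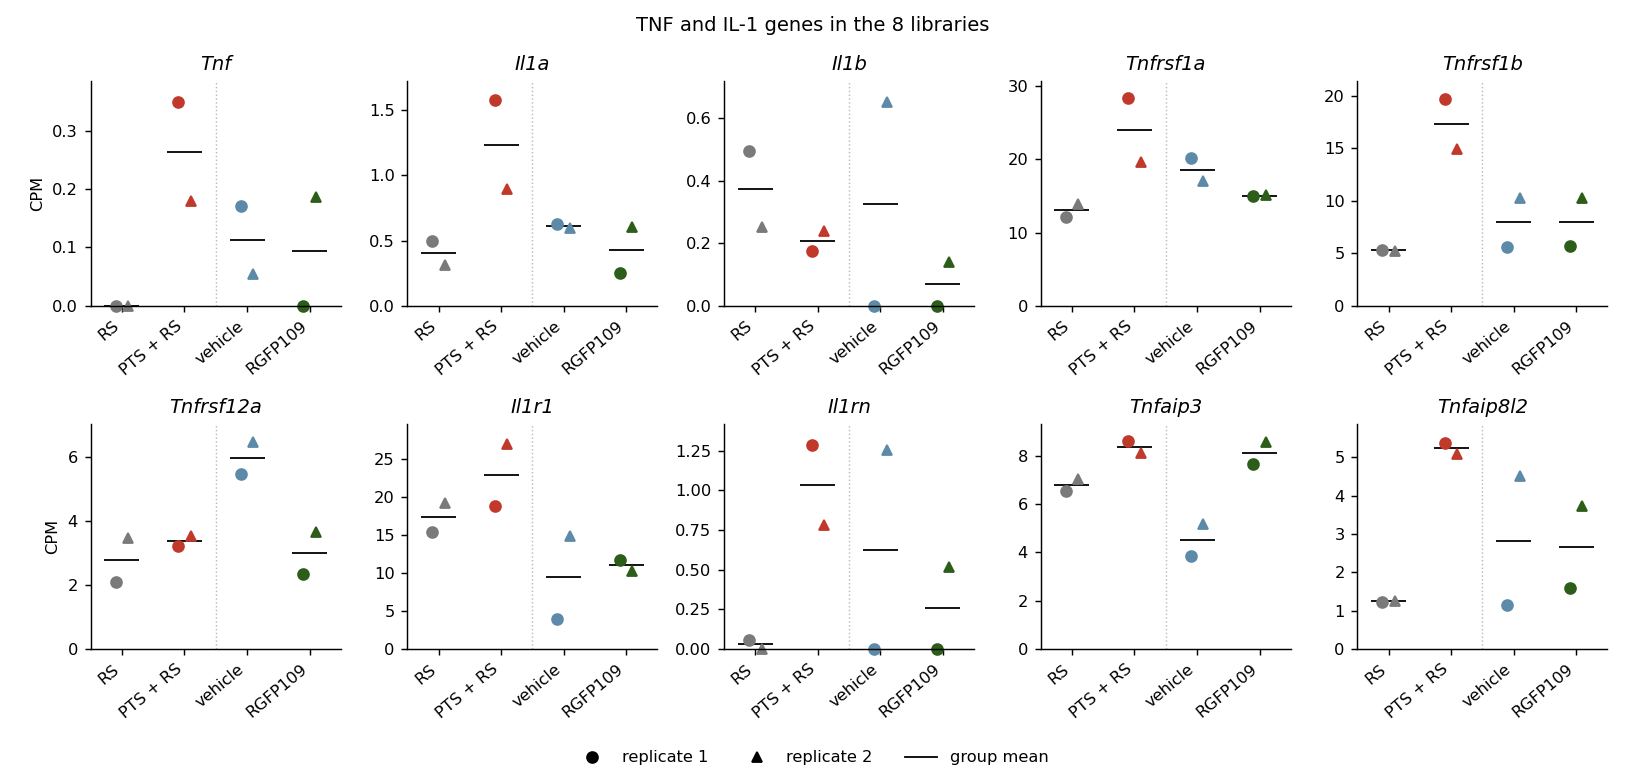
Each panel plots 1 gene, with CPM on the vertical axis and the 4 groups on the horizontal axis. Each point is 1 library, circles are replicate 1, triangles are replicate 2 and bars are group means. Tnfrsf1b and Tnfaip8l2 separate PTS + RS (lowest 15.0 and 5.09 CPM) from RS (highest 5.35 and 1.26 CPM), and in vehicle and RGFP109 they separate replicate 2 from replicate 1.

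Among the ligands, Tnf (chromosome 17, 35199381 to 35202007, minus strand, coordinates of GRCm38 as deposited) had 6 and 3 counts in PTS + RS and 0 and 0 counts in RS. With RS set at 3 counts in each library, Tnf was at least 1.49-fold higher in PTS + RS, a bound that rests on PTS + RS replicate 1, since replicate 2 was itself at 3 counts. It did not pass the filter and was tested only without it, where the edgeR adjusted p was 0.239. Il1a (chromosome 2, 129299610 to 129309972, minus strand) had 27 and 15 counts in PTS + RS and 9 and 5 in RS, or 1.58 and 0.898 CPM against 0.497 and 0.316 CPM. The groups did not overlap, and the log2 fold change was 1.58 ± 0.53 (SE), with an edgeR adjusted p of 0.187. Il1b (chromosome 2, 129364570 to 129371139, minus strand) went the other way at low counts, with 3 and 4 in PTS + RS and 9 and 4 in RS. In CPM the groups did not overlap (0.175 and 0.239 against 0.497 and 0.252). The ratio of its summed, depth-scaled counts was 0.54, with an exact 95% interval of 0.183 to 1.46 that covers counting error only. The interval includes 1, so no difference in Il1b was detected at this depth.

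Among the receptors, Tnfrsf1b (chromosome 4, 145213463 to 145246870, minus strand) had 337 and 250 counts in PTS + RS and 97 and 82 in RS, which is 19.7 and 15.0 CPM against 5.35 and 5.17 CPM. Both PTS + RS libraries were far above both RS libraries, which lay close together. The log2 fold change was 1.72 ± 0.19 (SE) with a 95% interval of 1.26 to 2.17 and an edgeR adjusted p of 0.00472.

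Tnfrsf1a (chromosome 6, 125349362 to 125362484, plus strand) had 487 and 329 counts in PTS + RS and 219 and 221 in RS, or 28.4 and 19.7 CPM against 12.1 and 13.9 CPM. The groups did not overlap, but the PTS + RS libraries differed from each other by more than the RS libraries did. The log2 fold change was 0.89 ± 0.20 (SE) with an edgeR adjusted p of 0.0614, so Tnfrsf1a did not pass. It passed, at 1.13 with an edgeR adjusted p of 0.000511, when PTS + RS replicate 2 was left out. Leaving out PTS + RS replicate 1 gave 0.60 with an edgeR adjusted p of 0.03, and DESeq2 gave 0.88 with 0.00573, both below the fold threshold. Per length, the ratio of Tnfrsf1b to Tnfrsf1a in the deposited FPKM was 0.47 and 0.516 in PTS + RS and 0.301 and 0.252 in RS. Tnfrsf1a was thus the more abundant of the pair in every library, and the share of Tnfrsf1b was higher in both PTS + RS libraries.

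Tnfrsf12a (chromosome 17, 23675445 to 23677468, minus strand) encodes Fn14, the receptor of the cytokine TWEAK. It had 55 and 59 counts in PTS + RS and 38 and 55 in RS, with overlapping CPM once depth was taken into account (3.21 and 3.53 against 2.10 and 3.47). The log2 fold change was 0.28 ± 0.32 (SE), edgeR adjusted p 0.706, with a 95% interval of -0.47 to 1.03, and its direction turned to -0.05 without RS replicate 1. Il1r1 (chromosome 1, 40225080 to 40317257, plus strand) had 323 and 451 counts in PTS + RS and 279 and 304 in RS, and its libraries overlapped in CPM (18.9 and 27.0 against 15.4 and 19.2). The log2 fold change of Il1r1 was 0.41 ± 0.20 (SE), edgeR adjusted p 0.345, and with 1 library left out it ranged from 0.13 (adjusted p 0.68) without PTS + RS replicate 2 to 0.65 (0.0148) without PTS + RS replicate 1. Neither receptor changed past the threshold.

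Il1rn (chromosome 2, 24336853 to 24351494, plus strand) showed the largest contrast in counts, 22 and 13 in PTS + RS against 1 and 0 in RS. The ratio of the summed, depth-scaled counts was 35.1, with an exact 95% interval of 5.91 to 1430 for counting error, and against 3 counts in each RS library it was 5.81. The edgeR adjusted p was 0.04. This call rested on few counts. The edgeR adjusted p was 0.111 without RS replicate 1 and 0.216 without RS replicate 2, Il1rn did not pass the filter without PTS + RS replicate 1, and DESeq2 gave 0.0671.

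Of the intracellular regulators, Tnfaip8l2 (chromosome 3, 95139521 to 95142360, minus strand), which encodes the immune regulator TIPE2, had 92 and 85 counts in PTS + RS and 22 and 20 in RS. In CPM this was 5.37 and 5.09 against 1.21 and 1.26, and each group was tight. The log2 fold change was 2.07 ± 0.27 (SE) with a 95% interval of 1.44 to 2.70 and an edgeR adjusted p of 0.00874. Tnfaip3 (chromosome 10, 19000910 to 19015657, minus strand), the gene of A20, had 148 and 136 counts in PTS + RS and 119 and 112 in RS, or 8.64 and 8.14 against 6.57 and 7.07 CPM. Its groups did not overlap either, but the difference was small, with a log2 fold change of 0.30 ± 0.18 (SE) and an edgeR adjusted p of 0.426. Tnfrsf1b and Tnfaip8l2 were past the threshold with every tool and with any 1 of the 4 libraries left out.

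**Figure D2:**
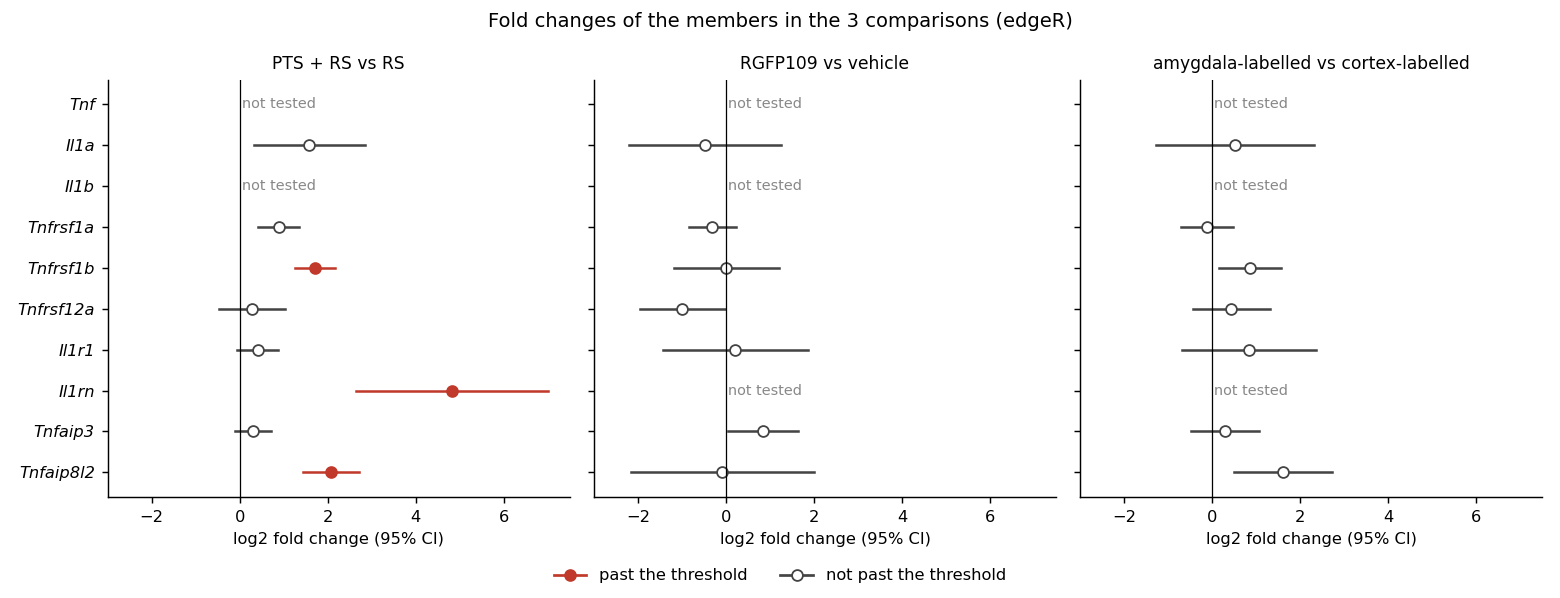
Each panel plots the log2 fold change of the members in 1 comparison on the horizontal axis, with the 95% confidence interval as a bar. Filled red points are past the threshold, open points are not, and members removed by the filter are marked as not tested. In PTS + RS against RS the points of Tnfrsf1b, Il1rn and Tnfaip8l2 are red (1.72, 4.82 and 2.07, the value of Il1rn being fitted against 1 count), and in the other 2 comparisons none is.

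The sequences before the starts of the 3 genes past the threshold are shown beside that of Tnfaip3, the other intracellular regulator among the members, which did not pass. They are RefSeq promoters of GRCm38.p6, which were found for all 10 genes, cut to the stretch that holds no exon of GENCODE M21. Tnfrsf1b is shown at chr4:145246871-145247120 (minus strand), Tnfaip8l2 at chr3:95142361-95142604 (minus strand), the first of 3 Il1rn starts at chr2:24336610-24336852 (plus strand) and the first of 2 Tnfaip3 starts at chr10:19015411-19015547 (minus strand). All are written 5′ to 3′ on the strand of the gene, and capitals mark matches to 4 motifs searched on both strands. They were an NF-κB motif of 10 letters, the AP-1 motif TGANTCA, the PU.1 motif GAGGAA and the TATA box TATAAA.
Tnfrsf1b: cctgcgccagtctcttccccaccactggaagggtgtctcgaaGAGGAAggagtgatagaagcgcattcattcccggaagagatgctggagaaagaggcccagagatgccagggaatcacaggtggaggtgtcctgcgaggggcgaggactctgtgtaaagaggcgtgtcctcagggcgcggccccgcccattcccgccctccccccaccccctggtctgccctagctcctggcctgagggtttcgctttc
Tnfaip8l2: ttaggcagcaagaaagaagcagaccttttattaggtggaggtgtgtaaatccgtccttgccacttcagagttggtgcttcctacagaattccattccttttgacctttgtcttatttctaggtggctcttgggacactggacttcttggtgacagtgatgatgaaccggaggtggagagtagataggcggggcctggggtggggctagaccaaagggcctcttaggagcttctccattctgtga
Il1rn: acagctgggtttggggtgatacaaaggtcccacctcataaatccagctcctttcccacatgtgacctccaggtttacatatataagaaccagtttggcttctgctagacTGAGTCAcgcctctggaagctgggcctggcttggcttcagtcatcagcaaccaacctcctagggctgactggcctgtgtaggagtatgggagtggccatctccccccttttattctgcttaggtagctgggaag
Tnfaip3: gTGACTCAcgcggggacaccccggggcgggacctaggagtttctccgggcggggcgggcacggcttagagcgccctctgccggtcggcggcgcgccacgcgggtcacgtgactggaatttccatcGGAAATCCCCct
Tnfrsf1b had a PU.1 motif at position -208, counted back from the start, Il1rn an AP-1 motif at -141, and Tnfaip3 an AP-1 motif at -136 and an NF-κB motif on the opposite strand at -12 (GGAAATCCCC as printed). None of the 4 motifs was found in the 250 bases before Tnfaip8l2. Another Il1rn start, the third, had an NF-κB motif at -51, outside the stretch free of exons and so not printed. Among 32851 promoters, the 250 bases before the start held the NF-κB motif in 1.41%, the AP-1 motif in 6.75%, the PU.1 motif in 23.3% and the TATA box in 12.4%. The ligands Tnf, Il1a and Il1b each had a TATA box, at -29, -32 and -31, and no match of these letters was found before Tnfrsf1a, Tnfrsf12a or Il1r1. Il1a also had a PU.1 motif at -41 and an AP-1 motif at -12, Tnf a PU.1 motif on the opposite strand at -117, and Tnfaip3 a TATA box at -225. These are matches of letters and were not tested for binding.

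Few of the other genes of the pathways were past the threshold. The counts at an unadjusted p under 0.05 given below stand beside 3139 of all 17581 genes tested in edgeR. Of 17 further TNF family ligands, 6 passed the filter and 0 were past the threshold in edgeR (1 at an unadjusted p under 0.05), with a median log2 fold change of 0.01. The largest values were Tnfsf8 (CD30L), with 12 and 11 counts against 1 and 0 (edgeR adjusted p 0.0644), and Tnfsf12, which encodes TWEAK (0.36, edgeR adjusted p 0.502). Tnfsf8 passed the filter through its PTS + RS libraries alone. Of 25 TNF family receptors, 20 were tested, 13 were positive and 1 was past the threshold, namely Tnfrsf11a (RANK), at 9.51 and 6.88 CPM against 3.15 and 2.65 CPM (log2 fold change 1.49 ± 0.25 SE, edgeR adjusted p 0.0247). Fas, the death receptor of Fas ligand, came next (1.35, edgeR adjusted p 0.108).

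In the IL-1 family, 3 of 8 ligands and binding proteins and 6 of 9 receptors were tested, and 0 were past the threshold, while 1 and 0 of them had an unadjusted edgeR p below 0.05. Il33, an alarmin of glial cells, had a log2 fold change of 0.56 (edgeR adjusted p 0.0895) and Il18bp, which binds IL-18, 0.34. The co-receptor Il1rap lay at 66.1 and 83.5 CPM in PTS + RS and 75.8 and 76.2 CPM in RS (-0.02), and the decoy receptor Il1r2 at 6 and 14 against 12 and 7 counts (0.09). Il1rl2 (0.86) and Il1rapl2 (-0.28) had the largest values among the receptors, and neither passed.

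Of 9 processing genes, all tested, 8 were positive and Gsdmd, which encodes the pore-forming gasdermin D, was past the threshold (7.82 and 6.22 against 2.59 and 2.33 CPM, log2 fold change 1.51 ± 0.24 SE, edgeR adjusted p 0.02). Casp4 had a larger value on fewer counts (1.78, edgeR adjusted p 0.152), and passed the filter through its PTS + RS libraries alone. Adam17, the protease that sheds TNF and its receptors, had 0.54 (edgeR adjusted p 0.0925), and Casp1, which cleaves pro-IL-1β, 0.87 (edgeR adjusted p 0.392). Of 28 adaptors and kinases, 27 were tested and 0 were past the threshold (8 at an unadjusted p under 0.05 in edgeR), with a median of 0.22 and with Casp8 (1.33) and Birc3 (1.07) as the largest. Tnip1 (0.29) and Tax1bp1 (0.19), partners of A20, led a list of 10 of which 9 were tested and 0 passed (2 at an unadjusted p under 0.05). Among 6 further TNFAIP genes, Tnfaip2 (1.24) and Tnfaip8l3 (-0.24) had the largest values and 0 passed (1 at an unadjusted p under 0.05), so of the TNFAIP8 family only Tnfaip8l2 was past the threshold in PTS + RS against RS.

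**Figure D3:**
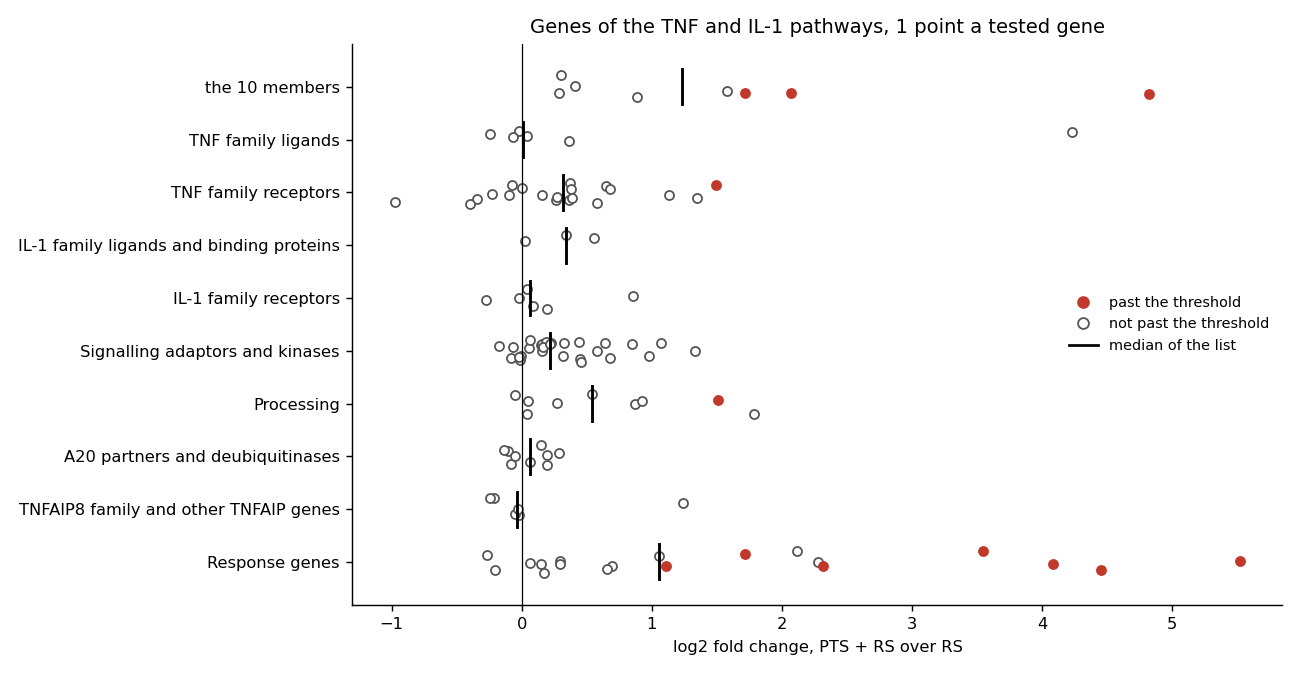
The horizontal axis is the log2 fold change of PTS + RS over RS, and each row is 1 gene list with 1 point for each tested gene. Filled red points are past the threshold and vertical bars are list medians. The medians of the response genes and of the 8 tested members lie at 1.06 and 1.23, and those of the other 8 lists between -0.04 and 0.54. Without genes that passed the filter through their PTS + RS libraries alone, the medians were 0.66 for response genes and 0.65 for members. That of the processing genes was then 0.4.

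Of 26 response genes that TNF or IL-1 can induce in many cells, 19 were tested, 17 were positive and 7 were past the threshold as higher, with a median of 1.06. Of the 7, Lcn2, Cxcl10 and Ccl2 passed the filter through their PTS + RS libraries alone, and 4 did not. The median of the 15 genes that did not depend on 1 group to pass the filter was 0.66. Lcn2 (lipocalin 2) had 104 and 136 counts in PTS + RS against 2 and 3 in RS (edgeR adjusted p 0.00112). Its log2 fold change of 5.52 was fitted against these low RS counts, so its size is uncertain. C3, the central complement component, was at 21.6 and 15.8 CPM against 1.43 and 1.77 (log2 fold change 3.55, edgeR adjusted p 0.000787). The chemokines were Cxcl10 with 238 and 72 counts against 9 and 9 (4.08, edgeR adjusted p 0.02) and Ccl2 with 13 and 14 against 1 and 0 (edgeR adjusted p 0.0497). Ptx3 (2.32), Icam1 (1.72) and Csf1 (1.11) rose as well. The list was written with earlier results of these data known.

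Microglial markers rose with the members in the same libraries. All 12 were higher in PTS + RS, 10 of them past the threshold with a median of 1.79, and none was at 0 in any library. Their summed level was 1124 and 936 CPM in PTS + RS and 321 and 280 CPM in RS. Per 1000 CPM of this sum, Tnfrsf1b was at 17.5 and 16.0 CPM in PTS + RS and at 16.7 and 18.5 CPM in RS, so its groups overlapped. The same ratio was 4.78 and 5.44 against 3.78 and 4.51 CPM for Tnfaip8l2 and 1.14 and 0.832 against 0.172 and 0 CPM for Il1rn. These were higher in both PTS + RS libraries, but the Tnfaip8l2 values lay close together, on 22 and 20 counts in RS. The RS values of Il1rn came from 1 and 0 counts, and the ratios carry no interval. For Tnfrsf1a the ratio was 25.3 and 21.0 against 37.6 and 49.8 CPM, and for Il1r1 16.8 and 28.8 against 47.9 and 68.6 CPM. Both were lower in both PTS + RS libraries. Astrocyte markers were also higher, with a sum over 7 genes of 7146 and 5850 CPM in PTS + RS and 3837 and 3896 CPM in RS. All 7 had positive fold changes, 4 had an edgeR adjusted p below 0.05, and Gfap (2.28) and Aqp4 (1.01) were past the threshold. In tissue RNA, more cells of a type and more RNA per cell cannot be told apart, and the part of microglia and astrocytes in these rises was not tested.

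Markers of other leukocytes differed by class. The summed level of 6 neutrophil markers was 0.759 and 0.479 CPM in PTS + RS and 0.0552 and 0.0631 CPM in RS, with Ly6g and Retnlg at 0 in all 4 libraries. T cell markers summed to 1.81 and 0.419 against 0.497 and 0.631 CPM, with Cd3g at 0 in all 4, and 6 border macrophage markers to 24.0 and 11.3 against 8.77 and 7.45 CPM. Among the latter Ms4a7 was past the threshold, with 94 and 44 counts against 2 and 7 (3.89, edgeR adjusted p 0.0217), and passed the filter through its PTS + RS libraries alone. The 5 monocyte markers summed to 34.6 and 33.9 against 19.3 and 20.8 CPM, of which Vcan made up 32.8 and 32.4 against 18.9 and 20.6 CPM, and the other 4 summed to 1.75 and 1.44 against 0.386 and 0.189 CPM. Outside the leukocytes and glia above, all 7 choroid plexus markers had negative log2 fold changes (median -1.76), as had all 6 neuron markers (median -0.18). All 7 endothelial (median 0.22) and all 5 oligodendrocyte markers (median 0.24) had positive ones. In these lists 0 markers were past the threshold. The part of all these cell types in the members' values was not tested.

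**Figure D4:**
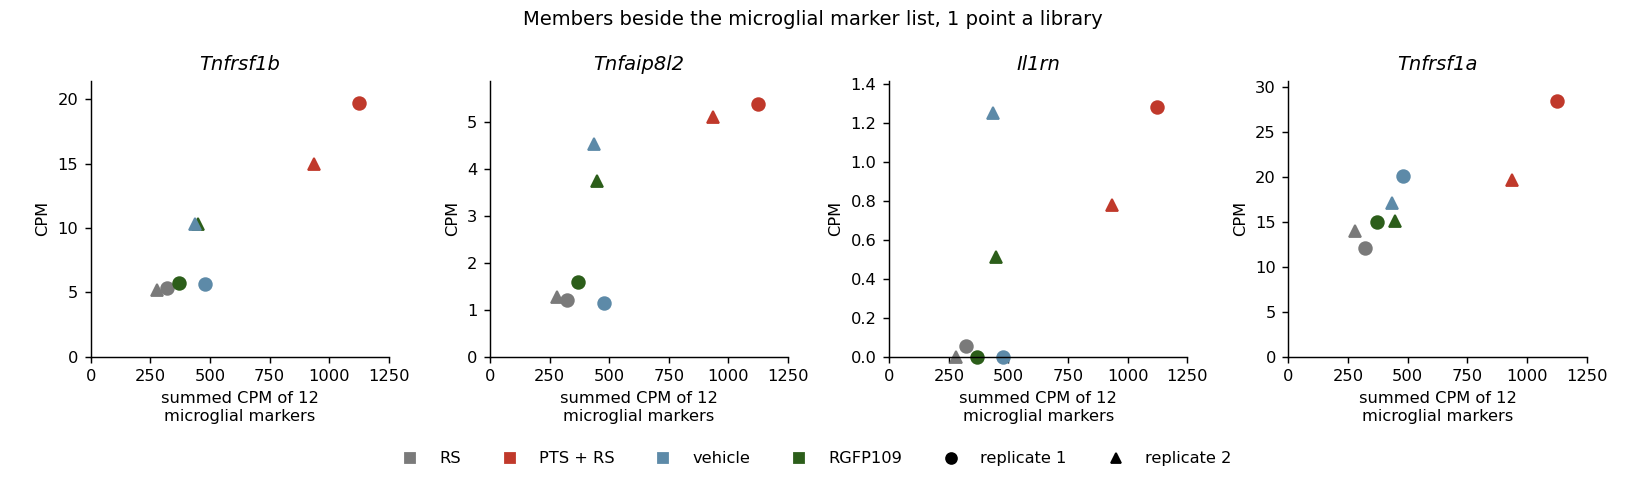
Each panel plots 1 member, with its CPM on the vertical axis against the summed CPM of 12 microglial markers on the horizontal axis, and each point is 1 of the 8 libraries. The 2 PTS + RS libraries lie at the far right and top of the Tnfrsf1b panel. The replicate 2 libraries of RGFP109 and vehicle lie above the replicate 1 libraries for Tnfrsf1b, Tnfaip8l2 and Il1rn. The position of vehicle replicate 1 at 479 CPM includes 208 CPM of Sall1 alone. Of the 12 markers, 8 were higher in both replicate 2 libraries and 2 were lower in both. The share of all genes that separate so was not counted.

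Per length, the order of the members differed between the groups. In RS the mean FPKM of Tnfrsf1a was 5.00 ± 0.51 (SD, n = 2), followed by Il1r1 at 2.70 ± 0.42, Tnfrsf12a at 1.43 ± 0.50, Tnfrsf1b at 1.37 ± 0.03, Tnfaip8l2 at 1.10 ± 0.03 and Tnfaip3 at 0.94 ± 0.05. In PTS + RS, Tnfrsf1a (9.22 ± 2.34) was followed by Tnfaip8l2 (4.63 ± 0.16), Tnfrsf1b (4.50 ± 0.85) and Il1r1 (3.58 ± 0.91), whose neighbours overlapped in their libraries, and then by Tnfrsf12a (1.73 ± 0.12) and Tnfaip3 (1.15 ± 0.04). The ligands and Il1rn came last in both groups, at 0.622 FPKM or less. By its mean, Tnfaip8l2 thus moved from the fifth place in RS to the second in PTS + RS, where it overlapped Tnfrsf1b. In RS the libraries of Tnfrsf12a (1.08 and 1.79 FPKM) overlapped those of Tnfrsf1b and Tnfaip8l2, so its place among them was not resolved.

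The second comparison, RGFP109 against vehicle in PTS + RS mice, asked which transcripts differed under this inhibitor. None of the members rose or fell past the threshold. Of the 10 genes, 7 were tested and 0 were past it in edgeR, DESeq2 or limma-voom, as were 0% of the 17565 genes in either direction. At an unadjusted p under 0.05, edgeR listed 2 members and 206 genes, DESeq2 1 and 433, and limma-voom 2 and 141. The common biological coefficient of variation was 32.1%, against 11.4% in the first experiment. Here the 2 libraries of each group carry different tissue labels and the fit has no term for the label. The 32.1% therefore includes any difference between the labels and is not a spread between like replicates.

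The 2 members were Tnfaip3 and Tnfrsf12a. Tnfaip3 had 121 and 184 counts with RGFP109 and 68 and 95 with vehicle, or 7.67 and 8.60 against 3.87 and 5.17 CPM, and did not overlap. The log2 difference was 0.97 in replicate 1 and 0.72 in replicate 2, and the fitted log2 fold change was 0.85 ± 0.31 (SE), with an unadjusted p of 0.0406 in edgeR and an adjusted p of 1.00. Tnfrsf12a had 37 and 78 counts with RGFP109 and 96 and 119 with vehicle, or 2.35 and 3.65 against 5.46 and 6.47 CPM, lower in both numbers (-1.18 and -0.81). Its fitted value was -0.99 ± 0.37 (SE), with an unadjusted p of 0.0474 in edgeR and an adjusted p of 1.00. Its ligand Tnfsf12 was at 2.54 and 3.04 against 3.53 and 4.30 CPM (-0.49, edgeR adjusted p 1.00).

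Tnfrsf1b, which rose in PTS + RS over RS, had 90 and 220 counts with RGFP109 and 99 and 189 with vehicle. Within each number its CPM were nearly equal, 5.71 against 5.63 in replicate 1 and 10.3 against 10.3 in replicate 2, and log2 differences were 0.02 and 0.00. The fitted log2 fold change was 0.01 with a 95% interval of -1.18 to 1.2, since the fit spans both tissue labels. Tnfrsf1a had 236 and 323 counts against 354 and 314, and was lower in both RGFP109 libraries (15.0 and 15.1 against 20.1 and 17.1 CPM), with a log2 fold change of -0.31 ± 0.20 (SE) and an edgeR adjusted p of 1.00.

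Of the tested members, Il1r1, Tnfaip8l2 and Il1a differed in opposite directions in the 2 numbers. Il1r1 had 184 and 220 counts with RGFP109 and 70 and 274 with vehicle, and vehicle replicate 1 was the lowest of all 8 libraries at 3.98 CPM. The fitted log2 fold change was 0.22 ± 0.63 (SE), edgeR adjusted p 1.00, and it was -0.45 without vehicle replicate 1, the library with olfactory bulb markers. Tnfaip8l2 had 25 and 80 counts against 20 and 83 (-0.08 ± 0.80 SE, edgeR adjusted p 1.00), and Il1a 4 and 13 against 11 and 11 (-0.47 ± 0.67 SE, edgeR adjusted p 1.00). Tnf had 0 and 4 counts against 3 and 1, Il1b 0 and 3 against 0 and 12, and Il1rn 0 and 11 against 0 and 23. The ratios of summed, depth-scaled counts were 0.968 (exact 95% interval 0.18 to 5.2) for Tnf, 0.242 (0.0438 to 0.897) for Il1b and 0.463 (0.204 to 0.989) for Il1rn. These intervals cover counting error only, the libraries of the groups overlapped, and in replicate 1 Il1b and Il1rn had 0 counts with either treatment.

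**Figure D5:**
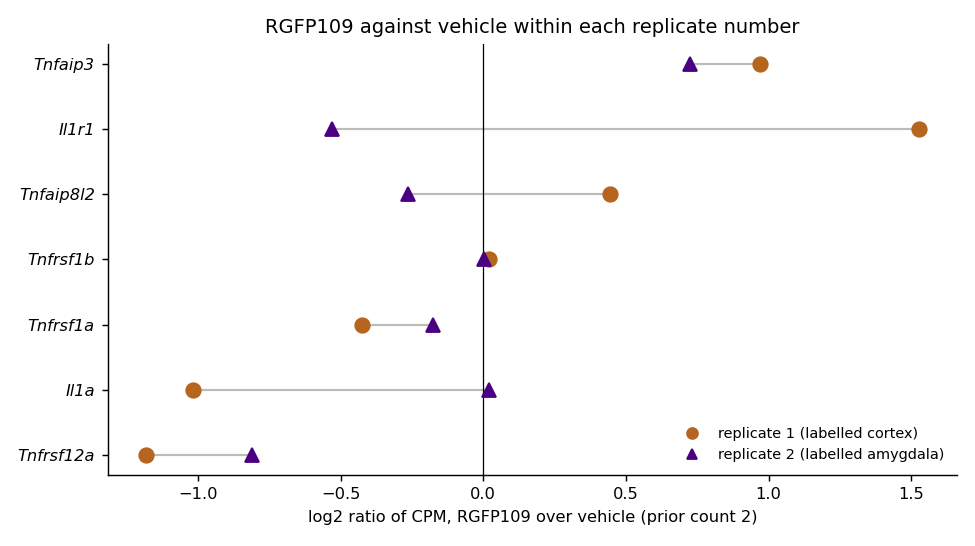
The horizontal axis is the log2 ratio of CPM of RGFP109 over vehicle within 1 replicate number, and each row is 1 of the 7 tested members. Circles are replicate 1, labelled cortex, and triangles are replicate 2, labelled amygdala. Tnfaip3 lies to the right (0.97 and 0.72) and Tnfrsf12a to the left (-1.18 and -0.81) in both numbers, Tnfrsf1b lies at 0.02 and 0.00, and Il1r1 spans 1.53 and -0.53.

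In every pathway list, 0 genes were past the threshold in RGFP109 against vehicle in edgeR. At an unadjusted p under 0.05 there were 2 of these, the adaptor Traf1 (-1.71, 0.0382) and Tnfaip8l3 (1.44, 0.0447), both with non-overlapping groups. The 2 largest values of the other lists were Casp1 (-1.23) and Rhbdf2 (-0.88) for processing, Tnfrsf25 (1.18) and Tnfrsf23 (-0.88) for receptors, Il1rap (0.64) and Il1rl2 (-0.44) for IL-1 receptors, and Mmp3 (-2.40) and Lcn2 (-0.87) for response genes. Ripk3 (-1.34) and Tnfaip8 (-0.67) came after Traf1 and Tnfaip8l3 in their lists, and Ripk3 passed the filter through its vehicle libraries alone. Tnfsf10 (0.54), Tnfsf13 (-0.50), Tnip2 (0.30), Optn (-0.28), Il33 (0.27) and Il18bp (-0.26) were the leading genes of the remaining lists. Adam17 had a log2 fold change of -0.31, and Il1r2 was not tested with 5 and 12 against 2 and 6 counts. Within the 2 numbers, Tnfrsf25 (2.19 and -0.19), Il1rl2 (0.59 and -0.79) and Lcn2 (2.33 and -1.03) differed in opposite directions. So did Optn (-0.61 and 0.12) and Adam17 (-0.72 and 0.07). Mmp3 had 0 counts in both replicate 1 libraries. The other genes named from the lists differed in the same direction in both numbers. List medians lay between -0.31 and 0.10, beside -0.02 for all genes tested. Microglial markers summed to 369 and 448 CPM with RGFP109 and to 479 and 436 CPM with vehicle, so the groups overlapped. Sall1 alone contributed 208 CPM in vehicle replicate 1, and the other 11 markers summed to 341 and 420 CPM with RGFP109 and to 270 and 412 CPM with vehicle, higher with RGFP109 in both numbers. Of the 12, 10 had positive fold changes and 0 passed in edgeR (0 at an unadjusted p under 0.05).

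The third comparison set the amygdala-labelled replicate 2 libraries against the cortex-labelled replicate 1 libraries of the same experiment, with treatment as a term. Tnfrsf1b, Tnfaip8l2, Il1b and Il1rn were higher in both replicate 2 libraries than in both replicate 1 libraries, and no member was lower in both. Il1b and Il1rn were not tested, and Il1b had only 3 counts in RGFP109 replicate 2. The share of all genes that separate in this way was not counted, so the number of members that do is a description only. Of 7 members tested, 0 were past the threshold in edgeR, DESeq2 or limma-voom, as were 0% of all 17565 genes in edgeR in either direction. DESeq2 listed 156 genes as higher and 53 as lower, with no member among them. At an unadjusted p under 0.05 there were 2 members and 1607 genes in edgeR, 1 and 1183 in DESeq2 and 2 and 1702 in limma-voom.

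Tnfrsf1b was at 10.3 CPM in both replicate 2 libraries and at 5.71 and 5.63 CPM in the replicate 1 libraries. The log2 fold change was 0.86 ± 0.27 (SE), with an unadjusted p of 0.0274 in edgeR and an adjusted p of 0.483. Tnfaip8l2 was at 3.74 and 4.51 CPM against 1.59 and 1.14 CPM (1.6 ± 0.42 SE, unadjusted p 0.0149, edgeR adjusted p 0.446). Il1rn had 11 and 23 counts against 0 and 0, at least 4.89-fold higher, and Il1b 3 and 12 against 0 and 0, at least 2.20-fold higher, both with cortex-labelled libraries set at 3 counts each. The bound of Il1b rests on vehicle replicate 2, since RGFP109 replicate 2 was itself at 3 counts. Il1r1 (0.84 ± 0.57 SE), Il1a (0.51 ± 0.68 SE), Tnfrsf12a (0.43 ± 0.33 SE), Tnfaip3 (0.29 ± 0.29 SE) and Tnfrsf1a (-0.11 ± 0.22 SE) overlapped between the labels.

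This result changed with the library left out, a setting chosen after seeing the data, with the tissue label as the only term. Without RGFP109 replicate 1, edgeR listed Il1r1, Il1rn and Tnfaip8l2 as higher and 7.45% of 18744 genes, and without vehicle replicate 1, Il1rn, Tnfaip8l2 and Tnfrsf12a and 4% of 18613 genes. The lone cortex-labelled library was then assumed to vary like the 2 amygdala-labelled ones. In the first of these fits that library was vehicle replicate 1, with the olfactory bulb markers and the lowest Il1r1 of all 8, and the log2 fold change of Il1r1 was 1.66 there and 0.12 in the second (unadjusted p 0.604 in edgeR). Il1rn had 0 counts in the lone library in both fits and passed the filter through the amygdala-labelled libraries alone, so its listing adds nothing to its counts. Without either replicate 2 library, 0 members were listed (2 and 0 at an unadjusted p under 0.05). The edgeR adjusted p of Tnfaip8l2 was 0.000165 and 0.00834 in the first 2 of these fits.

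T cell markers summed to 21.2 and 18.9 CPM in the replicate 2 libraries and to 1.4 and 0.683 CPM in the replicate 1 libraries, but Cd4 and Trbc2 made up 20.2 and 17.7 CPM of the former. The other 4 T cell markers, Cd3d, Cd3e, Cd3g and Cd8a, summed to 0.982 and 1.2 against 0.571 and 0.228 CPM, and border macrophage markers to 25.6 and 36.9 against 16.1 and 16.3 CPM. Of the 12 microglial markers, 8 were higher in both replicate 2 libraries, 2 were lower in both and 0 passed in edgeR (4 at an unadjusted p under 0.05). The share of all genes that separate in this way was not counted, so these numbers of markers are a description only. Without Sall1 the markers summed to 420 and 412 against 341 and 270 CPM, higher in the same libraries as Tnfrsf1b, Tnfaip8l2 and Il1rn. Among response genes, 16 of 19 tested were positive and 0 passed (9 at an unadjusted p under 0.05 in edgeR). Of the 19, Bcl3, Ccl5 and Mmp3 passed the filter through the amygdala-labelled libraries alone, so that their positive sign was built in. The 16 genes that did not depend on 1 label to pass the filter had a median log2 fold change of 0.76. Mmp3 had 23 and 110 counts against 0 and 0, at least 19.6-fold higher, and Lcn2 273 and 482 against 25 and 4 counts (4.50, edgeR adjusted p 0.393). In the other lists 0 passed as well, and the 2 largest values were those of Eda2r (1.87) and Tnfrsf11b (1.61), Il1rl2 (1.6) and Il1rapl2 (0.66), Casp4 (1.78) and Casp1 (-1.04), Irak3 (1.44) and Birc3 (1.01), Tnfsf10 (-1.51) and Tnfsf12 (0.27), Cyld (0.82) and Tnip1 (0.34), Tnfaip2 (0.81) and Tnfaip8l1 (0.78), and Il33 (0.43) and Il18 (0.22). Of these, Eda2r and Casp4 passed the filter through the amygdala-labelled libraries alone. Il1rap had 0.40 and Adam17 0.07. The part of these cell types and of dissection in the values was not tested, and the tissue label cannot be told apart from the replicate number.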

How the data were processed

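Reads were mapped by the authors with STAR 2.4.0 (GRCm38) and assigned to genes with HTSeq 0.6.1, per the study's methods and the submitters' processing notes. The deposited counts are whole numbers without normalization. The deposited FPKM are these counts scaled to gene length and library, and were used only to order levels between genes. The labels and the paper name different library kits, and the strand setting of the counting is not given in the sources used here. The deposited fold changes and p-values of the authors' own comparisons and 8 further per-library columns were not used.

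Tests were run in edgeR 4.0.16, with DESeq2 1.42.0 and limma 3.58.1 as alternatives (R 4.3.3), and other steps in Python 3.11.15, pandas 2.3.3, SciPy 1.17.1 and matplotlib 3.10.9. Genes were filtered by filterByExpr at its defaults, normalized by TMM, fitted over all genes of each table with edgeR's quasi-likelihood test and adjusted by Benjamini-Hochberg. Single-library log2 ratios used a prior count of 2. Alternatives were RLE size factors, no filter, DESeq2, limma-voom, a replicate block and leaving out libraries. The script was checked on simulated counts. Symbols of both tables were joined by name and position for all 28229 genes. Samples were grouped by the labels.

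All 10 members were named. From each pathway list, genes past the threshold and the 2 largest absolute fold changes were named, with Tnfsf12, Il1r2, Il1rap, Adam17 and Casp1. Members, lists and tests were chosen with earlier results of these data known. Same-numbered libraries deviated together with a correlation of 0.299 in the RGFP109 experiment, where the number also marks the tissue label, and 0.0352 in the other, and the labels do not tie a number to a mouse. The reported fits have no replicate block, so in the RGFP109 experiment their spread includes the tissue label. A block was fitted as an alternative, and ratios within a number are given as descriptions. Marker sums without the gene that dominates them were added after seeing the data. Precision was limited by the 2 libraries per group, and intervals on counts cover counting error only.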

Additional observations from a re-analysis of the deposited data

Results flagged for a closer look

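Under RGFP109 against vehicle, 3 of the 7 tested members differed in opposite directions in the 2 replicate numbers, of which the first is labelled cortex and the second amygdala. Il1r1 differed by 1.53 on the log2 scale in replicate 1 and by -0.53 in replicate 2. Tnfaip8l2 differed by 0.44 and -0.26, and Il1a by -1.02 and 0.0193. Tnf, which was not tested, also changed sign (-1.36 and 0.86) at no more than 4 counts in a library. Each value compares 1 library with 1 library, so the difference between the numbers was not tested. Vehicle replicate 1, the comparator of replicate 1, is the library with 1167 CPM of olfactory bulb markers.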

How the results depend on the processing

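The depth of 15902013 to 21712033 counts limits Tnf, Il1b and Il1rn, which lie at or near 3 counts in several libraries, and the 2 libraries per group limit the rest. In PTS + RS against RS, 3 members were listed by edgeR, 3 with RLE size factors, 3 without the filter, 3 with limma-voom, 2 with DESeq2 and 2 to 4 with 1 library left out. With the replicate block 3 members were listed, and over all genes 443 higher and 32 lower in place of 373 and 16. The block changed no member's call in either experiment, although the adjusted p of Tnfrsf1a became 0.0392. Without the filter, 604 genes were higher and 155 lower. In RGFP109 against vehicle 0 members were listed under each alternative, the replicate block included (0), and 0 to 0 with 1 library left out, while 15 genes were higher and 78 lower without vehicle replicate 2. For the tissue label 0 members were listed under each alternative with all 4 libraries, although 187 genes were higher and 53 lower without the filter, and 0 to 3 with the label alone and 1 library left out. Leaving out a library with treatment as a term was not run as a test, because no residual degree of freedom remains. Values below are log2 fold changes that changed sign, and the cause was not tested. In PTS + RS against RS, Il1r2 became -0.0118 with limma-voom. With 1 library left out Il1r2 ranged from -0.66 to 0.58, Tnfrsf12a from -0.0479 to 0.68, Il1rapl2 from -0.79 to 0.0922 and Il1rap from -0.20 to 0.13. In RGFP109 against vehicle, Tnfaip8l2 became 0.15 with limma-voom and 0.063 with the replicate block, and Lcn2 0.91 and 0.17. With 1 library left out, Tnfrsf1b ranged from -0.48 to 0.52, Tnfaip8l2 from -0.83 to 1.24, Il1r1 from -0.45 to 1.47, Tnfsf10 from -0.35 to 1.52, Il1rl2 from -1.19 to 1.19, Optn from -0.55 to 0.0582, Mmp3 from -8.70 to 6.38 and Lcn2 from -3.06 to 4.96. For the tissue label alone with 1 library left out, a setting chosen after seeing the data, Tnfrsf1a ranged from -0.32 to 0.12, Tnfrsf12a from -0.11 (and -0.0847) to 1.11, Tnfaip3 from -0.15 (and -0.137) to 0.84, Il1a from -0.0479 to 1.24, Il1rap from -0.18 to 1.02 and Adam17 from -0.28 to 0.45.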

Other observations

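The genes whose pattern over the 8 libraries was most like that of a member were looked up for the 6 members with at least 10 counts in every library, among 18466 genes and by Pearson's correlation of log2 CPM. For Tnfrsf1b they were C3ar1, the receptor of complement C3a, at 0.996, Rasal3 at 0.994 and Slco2b1 at 0.994. For Tnfaip8l2 they were Vsir at 0.991, Ctss, the lysosomal protease cathepsin S, at 0.991, and Arhgap30 at 0.989. The genes most like Tnfrsf1a were Gm2962 (0.985), Slc46a3 (0.97) and Adipor1 (0.957), those most like Il1r1 were Bcar1 (0.985), Gm7361 (0.981) and Fth1 (0.981), those most like Tnfaip3 were 4932442E05Rik (0.98), Mpp5 (0.963) and Apbb2 (0.952), and those most like Tnfrsf12a were Cyb5r4 (0.952), Tssk6 (0.935) and Slc35e4 (0.935). The libraries share groups, tissue labels and depth, and the values are descriptions of these 8 libraries.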
